A study of Mus musculus with 12 samples.

Results

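The neighbouring cytokine genes of mouse chromosome 11, Il3, Csf2 and Il13, were followed across the 4 groups of an RNA sequencing experiment on cytotoxic T lymphocytes (CTL). They were taken by gene symbol from the deposited expression table and make up 3 of its 11022 genes. The CTL came from female P14 mice of 9 to 13 weeks of age, which carry a transgenic T cell receptor (TCR) for peptide gp33-41 of lymphocytic choriomeningitis virus, and 3 mice gave the 3 biological replicates of each group. Lymph node or spleen cells were activated with the peptide together with IL-2 and IL-12 for 48 h, then expanded in IL-2 for 5 days. The CTL were left unstimulated (unstimulated), or retriggered with 100 ng/mL gp33 peptide for 4 h with the vehicle DMSO (TCR), with 10 µM of the PI3K p110δ inhibitor IC87114 (TCR+PI3Kdi) or with 2 µM of the MEK1/2 inhibitor PD184252 (TCR+MEKi). IL-2 was present in all 4 groups. The groups thus differ in peptide and inhibitor at 1 time, in cells of 1 transgenic TCR expanded in vitro, and no group received an inhibitor without peptide.

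Il3 encodes interleukin 3 and Csf2 encodes granulocyte-macrophage colony-stimulating factor, growth factors for haematopoietic progenitors and myeloid cells whose receptors share the common beta chain. Il13 encodes interleukin 13, a type 2 cytokine best known from helper T cells and innate lymphoid cells, which acts on epithelium and macrophages through a receptor that contains the IL-4 receptor alpha chain. In T cells these genes are switched on by antigen receptor signals that reach NFAT, AP-1 and NF-κB factors. PI3K p110δ makes the lipid signal for AKT and other kinases downstream of the TCR, and MEK1/2 activates the ERK kinases.

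All 3 genes lie on the minus strand of chromosome 11 (coordinates of GRCm38.p6, whose primary sequence is that of mm10). Il3 (Entrez gene 16187) runs from 54265085 to 54267279 and Csf2 (Entrez gene 12981) from 54247270 to 54249899, 15.2 kb apart. Il13 (Entrez gene 16163) runs from 53631323 to 53634702, 613 kb from Csf2. None of the 100-base stretches of their GENCODE M21 transcripts occurs in a transcript of another gene (0 of 530 for Il3, 0 of 701 for Csf2 and 0 of 1106 for Il13). The 218 bases by which the RefSeq model of Il3 reaches beyond the GENCODE end were not searched. Of the 800 exon bases of Csf2, 96 overlap an exon of Gm12223 on the other strand, and the strand setting of the read counting is not given in the sources used here.

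The 250 bases before the RefSeq start of each gene are shown because all 3 rose with TCR retriggering and were lower with each inhibitor. Other genes did so too, and shared control of the 3 was not tested. Matches to the searched motifs are in capitals (RefSeq sequences, GRCm38.p6, minus strand, 5′ to 3′). They cover chr11:54267280-54267529 for Il3, chr11:54249900-54250149 for Csf2 and chr11:53634703-53634952 for Il13.
Il3: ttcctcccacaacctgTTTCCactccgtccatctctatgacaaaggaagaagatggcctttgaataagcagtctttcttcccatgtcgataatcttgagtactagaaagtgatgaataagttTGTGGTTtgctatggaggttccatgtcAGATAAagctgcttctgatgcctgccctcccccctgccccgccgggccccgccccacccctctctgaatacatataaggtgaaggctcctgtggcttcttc
Csf2: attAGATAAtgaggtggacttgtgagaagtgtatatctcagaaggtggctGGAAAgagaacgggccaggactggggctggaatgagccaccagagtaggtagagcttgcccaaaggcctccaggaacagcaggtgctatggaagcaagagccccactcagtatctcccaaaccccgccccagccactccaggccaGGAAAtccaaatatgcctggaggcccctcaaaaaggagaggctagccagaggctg
Il13: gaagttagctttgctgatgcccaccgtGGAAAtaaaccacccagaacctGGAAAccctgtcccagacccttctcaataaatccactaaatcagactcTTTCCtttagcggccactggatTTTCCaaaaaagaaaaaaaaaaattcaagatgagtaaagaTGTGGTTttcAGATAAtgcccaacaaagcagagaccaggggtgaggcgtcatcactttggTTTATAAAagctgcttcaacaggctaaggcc

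The motif of the GATA factors, searched as the letters AGATAA on both strands, stands in all 3 windows, at position -101 in Il3, -247 in Csf2 and -81 in Il13, counted back from the start. It is held by 10.3% of the 27025 promoter windows of the same length. The NFAT core GGAAA is also in all 3 and in 55.6% of all windows. The RUNX core TGTGGTT is in the windows of Il3 and Il13, and in 4.46% of all, while TATAAA is in that of Il13 only of the 3, with overlapping matches on both strands, and in 13% of all. The other searched letters, TGANTCA for AP-1 (6.87% of all windows), GAGATTCC for a CD28 response core (0.696%), CATTTCCN for the core of CLE0, an element known from the Csf2 promoter (6.26%), TGACGTCA for CRE (1.62%), GCGNGGGCG for EGR (4.65%) and an NF-κB consensus (0.337%), are in none of the 3 windows. These are matches of letters in these windows only. The window of Csf2 starts from a RefSeq first base that lies 232 bases upstream of the first base in GENCODE M21 (54249667), so it does not cover the bases just before the GENCODE start.

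Levels are given in FPKM, fragments per length of exon and size of the library, so that levels of different genes can be set side by side as far as the exon lengths hold. The exon lengths that the authors used are not given in the sources used here. From the steps between low values the libraries held an estimated 7845000 to 13180000 reads. In all groups the 9 CTL markers looked at, among them Cd8a and Gzmb, were measured. Of the markers of other cells, Cd4 was at 0.773 ± 0.293 FPKM (mean ± SD, n = 3 here and throughout) in unstimulated CTL and 2.69 ± 0.168 FPKM in TCR cultures, beside 221 ± 8.01 and 360 ± 6.73 FPKM of Cd8a. In these bulk samples more cells that express a gene and more RNA per cell cannot be told apart.

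TCR retriggering brought Il3 and Csf2 from low levels to among the most abundant mRNA of the CTL, and Il13 from no detected reads to a low level. Il3 was listed at 0.10, 0 and 0.18 FPKM in unstimulated replicates 1, 2 and 3, about 1, 0 and 2 reads. In TCR cultures it was at 2850.12, 2345.83 and 2195.45 FPKM. The unstimulated values thus lay under the level of 3 reads, and every TCR culture was above every unstimulated one.

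The mean of Il3 rose from 0.0933 ± 0.0902 to 2464 ± 343 FPKM, a ratio of 26400 with a counting interval of 9030 to 128000 (95%, from the 3 reads of the unstimulated group, counting error only). In limma, with Benjamini-Hochberg adjustment over all genes, the log2 fold change on the log2(FPKM + 0.1) scale was 13.75 (SE 0.26, adjusted p = 2.70e-15). Among all 11022 genes this was rank 1 of the rises, though its size depends on the pseudocount (11.13 with a pseudocount of 1 and 15.33 with a pseudocount of 0.01, by limma).

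Csf2 was already measurable without peptide, at 3.45, 3.34 and 4.08 FPKM. After TCR retriggering it was at 3211.27, 3105.51 and 3298.92 FPKM, the narrowest spread of the 3 genes (SD 3.02% of the mean). The groups did not overlap. The TCR mean of 3205 ± 96.8 FPKM was 885-fold over the unstimulated mean of 3.62 ± 0.399 FPKM (log2 fold change 9.75, SE 0.15, adjusted p = 1.64e-16 in limma).

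Il13 was listed at 0 in all 3 unstimulated cultures, where 3 reads would be 0.189 to 0.238 FPKM. TCR cultures had 14.36, 11.11 and 14.54 FPKM, from about 133 to 171 reads each. The mean of 13.3 ± 1.93 FPKM was at least 56.0-fold higher than the highest of these floors (3 reads per library). In limma the gene was past the threshold with adjusted p = 7.94e-13. The fitted log2 fold change of 7.06 (SE 0.22) depends on the pseudocount and is no measure of the true fold.

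A gene was called where adjusted p was under 0.05 and the change over 2-fold. By that rule all 3 genes rose with TCR retriggering, against 8.87% of all genes called higher and 11.1% called lower. Il13, with no reads in unstimulated CTL, and Il3, with 0 to 2 reads a culture there, could pass the authors' filter on low counts only through stimulated groups. Their rise was thus largely set by that filter, and the share over all genes does not measure how unusual it is. The split over all genes, 978 higher and 1224 lower, became 647 and 2276 when each library was rescaled to a common FPKM sum (TPM scale), where the median of all genes was -0.41 in log2 units against -0.01 with the deposited scaling. On that scale Il3, Csf2 and Il13 still rose (13.47, 9.35 and 6.85).

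**Figure D1:**
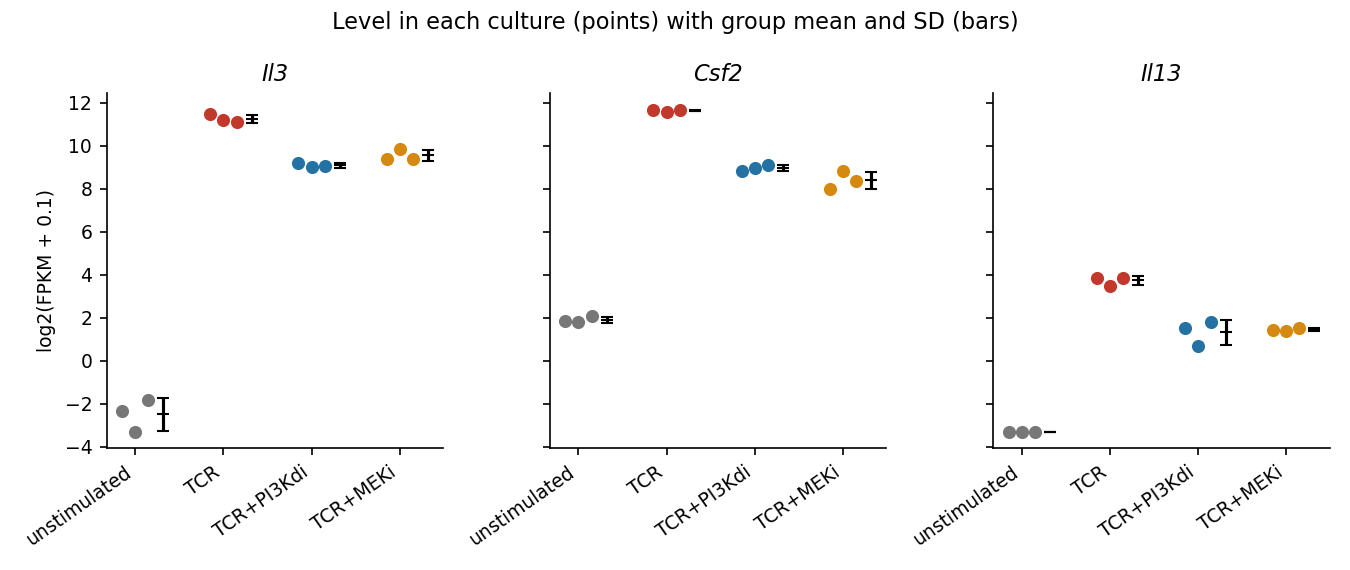
Level of Il3, Csf2 and Il13 in each of the 12 cultures, as log2(FPKM + 0.1), by group, with the group mean and SD at the right of the points (n = 3). Each gene is highest in the 3 TCR cultures and lowest in the 3 unstimulated cultures, and Il13 lies far under the others in every stimulated group.

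By FPKM after TCR retriggering the order was Csf2, Il3, Il13. The order of Csf2 and Il3, here and with an inhibitor, depends on the exon lengths used. Il3 has 629 exon bases in GENCODE and 218 more in RefSeq. Csf2 ranked 16 and Il3 ranked 22 of 11022 genes by mean FPKM, and Il13 ranked 4873. Among the 60 listed cytokine genes the ranks were 9, 10 and 39. Csf2 was above Il3 in each of the 3 TCR cultures, and the lowest Csf2 value lay above the highest Il3 value. The Il13 mRNA was at 0.00447, 0.00358 and 0.00441 of the Csf2 level in the same cultures.

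The second comparison asked how much of this response needs PI3K p110δ. With PI3Kdi, Il3 was at 592.48, 518.68 and 528.78 FPKM. Its mean of 547 ± 40.0 FPKM was 4.51-fold under that of TCR cultures (log2 fold change -2.17, SE 0.26, adjusted p = 3.74e-05 in limma). All 3 values lay under the lowest TCR value and far over the highest unstimulated value.

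Csf2 was at 449.87, 506.92 and 559.05 FPKM with PI3Kdi. The mean of 505 ± 54.6 FPKM was 6.34-fold under that of TCR cultures (log2 fold change -2.67, SE 0.15, adjusted p = 3.40e-08 in limma). This was the fall of rank 9 among all genes, and Csf2 exchanged its place with Il3, which had the higher mean in this group. The Il3 and Csf2 values of the TCR+PI3Kdi cultures overlapped.

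Il13 was at 2.74, 1.51 and 3.37 FPKM with PI3Kdi, from about 33, 18 and 48 reads. The mean of 2.54 ± 0.946 FPKM was 5.25-fold under that of TCR cultures (log2 fold change -2.41, SE 0.22, adjusted p = 3.94e-06 in limma). Its relative spread, an SD of 37.2% of the mean, was the widest of the 3 genes in any stimulated group. Even so the TCR+PI3Kdi and TCR values did not overlap.

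All 3 genes were thus called lower with PI3Kdi, against 1.38% of all genes called lower and 0.499% called higher. The split over all genes was 55 higher and 152 lower, and 119 higher and 107 lower on the TPM scale, where the median of all genes was 0.19. On that scale the 3 genes were lower by log2 fold changes of -1.98 (Il3), -2.49 (Csf2) and -2.23 (Il13).

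The response to MEK1/2 inhibition was looked at in the same way. With MEKi, Il3 was at 678.68, 930.25 and 676.85 FPKM. Its mean of 762 ± 146 FPKM was 3.23-fold under that of TCR cultures (log2 fold change -1.70, SE 0.26, adjusted p = 0.000145 in limma). The highest of the 3 cultures, replicate 2, still lay under every TCR culture. With a pseudocount of 0.01, which widens the spread between the unstimulated values at 0 to 2 reads, limma gave adjusted p = 0.0733.

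Csf2 was at 258.33, 450.72 and 331.57 FPKM with MEKi. The mean of 347 ± 97.1 FPKM was 9.24-fold under that of TCR cultures (log2 fold change -3.24, SE 0.15, adjusted p = 1.63e-09 in limma). Replicate 2 was again the highest culture, as for Il3, and the groups were far apart.

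Il13 was at 2.63, 2.51 and 2.81 FPKM with MEKi, from about 25 to 31 reads each. The mean of 2.65 ± 0.151 FPKM was 5.03-fold under that of TCR cultures (log2 fold change -2.28, SE 0.22, adjusted p = 2.22e-06 in limma). Here the 3 cultures were close together, and replicate 2 was the lowest.

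All 3 genes were called lower with MEKi, against 2.51% of all genes called lower and 0.980% called higher. The split over all genes was 108 higher and 277 lower, and 323 higher and 202 lower on the TPM scale, where the median of all genes was 0.26 and the log2 fold changes of Il3, Csf2 and Il13 were -1.44, -2.98 and -2.02. By size of fall among all genes, Csf2 ranked 19, Il13 ranked 46 and Il3 ranked 104.

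**Figure D2:**
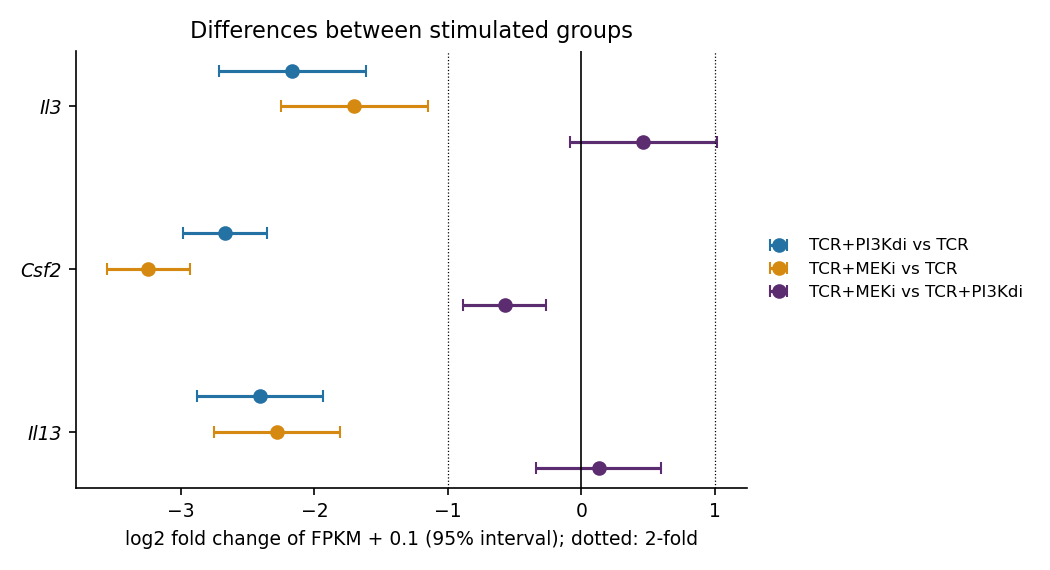
Log2 fold changes of FPKM + 0.1 with 95% intervals from limma (3 cultures per group), for each inhibitor against TCR and for TCR+MEKi against TCR+PI3Kdi, with dotted lines at a 2-fold change. Both inhibitors lowered each gene by more than 2-fold, and Csf2 was lower with MEKi than with PI3Kdi while the intervals of Il3 and Il13 for that comparison reach over 0.

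Set against each other, the inhibitors differed by less than 2-fold for each gene, and none was called, against 1.39% of all genes called higher and 1.71% called lower with MEKi. At an unadjusted p under 0.05 limma passed 1 of the 3, Csf2, and the share of all genes at that threshold was not determined. Csf2 was lower with MEKi than with PI3Kdi by a log2 fold change of -0.57 (95% interval -0.89 to -0.26, adjusted p = 0.00813 in limma), but the highest TCR+MEKi culture (450.72 FPKM) overlapped the lowest TCR+PI3Kdi culture (449.87 FPKM). Il3 was higher with MEKi in all 3 cultures than in any TCR+PI3Kdi culture, with a log2 fold change of 0.46 (-0.08 to 1.01, adjusted p = 0.189). That adjusted p takes in the spread of the unstimulated cultures, which hold 0 to 2 reads of Il3. It was 0.00956 in a fit of only the groups compared, 0.00838 with a pseudocount of 1, 0.00249 with voom weights and 0.0236 without unstimulated replicate 2, so whether Il3 passed 0.05 here depended on the setting, at a change under 2-fold in each. For Il13 the log2 fold change was 0.13 (-0.34 to 0.60, adjusted p = 0.697), and it took the other sign without replicate 2 of TCR+PI3Kdi (-0.19).

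Neither inhibitor returned any of the 3 genes to the unstimulated level. Il3 kept 22.2% ± 1.62 of its TCR-driven rise in FPKM with PI3Kdi and 30.9% ± 5.92 with MEKi. Csf2 kept 15.7% ± 1.71 and 10.7% ± 3.03. Il13 kept 19.1% ± 7.09 and 19.9% ± 1.13. In these percentages each inhibitor culture was set against the group means of TCR and unstimulated.

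Against unstimulated CTL, Csf2 was 139-fold higher with PI3Kdi and 95.7-fold higher with MEKi. Il13 was at least 10.7-fold and at least 11.1-fold higher than the floor of 3 reads. For Il3 the ratios to the mean of the unstimulated group were 5860 (2000 to 28400) and 8160 (2790 to 39600), with counting intervals as before. All 3 genes were called higher in both of these comparisons, against 7.16% of all genes with PI3Kdi and 6.95% with MEKi. The limit set by the filter on low counts holds for Il3 and Il13 here too. The 2 inhibitor comparisons share their TCR and unstimulated cultures.

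The ratio of Il3 to Csf2 within a culture does not depend on the scaling of its library. Its size depends on the exon lengths used for both genes, while its fold change between groups does not. In TCR cultures Il3 was at 0.888, 0.755 and 0.666 of the Csf2 level. With PI3Kdi the ratio was 1.32, 1.02 and 0.946, and with MEKi it was 2.63, 2.06 and 2.04. The 3 groups did not overlap at any point, with the lowest ratios in TCR cultures and the highest in TCR+MEKi cultures. The ratio was 2.92-fold higher with MEKi than in TCR cultures (log2 difference 1.54, SE 0.17), 1.42-fold higher with PI3Kdi (0.50, SE 0.19) and 2.06-fold higher with MEKi than with PI3Kdi (1.04, SE 0.19).

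With 3 cultures against 3, the exact two-sided permutation test cannot give less than p = 0.1, which each of these 3 differences reached (0.18 after Benjamini-Hochberg adjustment over 9 comparisons of ratios). Of the 9, which are not independent since each ratio and each contrast follows from the others, 5 had groups without overlap. The others of these 5 were Il13 to Csf2, 1.95-fold higher with MEKi than in TCR cultures, and Il13 to Il3, at 0.669 of its TCR value with MEKi. The ratios with Il13 were more widely spread. Il13 to Il3 was 0.00462, 0.00291 and 0.00637 with PI3Kdi and 0.00504, 0.00474 and 0.00662 in TCR cultures, which overlapped (exact permutation p = 0.5, two-sided).

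The tests and SE above treat the cultures as unpaired. Taking cultures of equal replicate number as pairs, the Il3 to Csf2 ratio was 1.48-, 1.35- and 1.42-fold higher with PI3Kdi than in TCR cultures (SE of the log2 difference 0.038 over 3 pairs) and 2.96-, 2.73- and 3.07-fold higher with MEKi (SE 0.049). Within pairs the Il13 to Il3 ratio was lower with PI3Kdi in 3 of 3, at 0.945, 0.649 and 0.984 of the TCR value. In 8 of the 9 comparisons, which are not independent, all 3 pairs went one way. The exception was Il13 to Csf2 with PI3Kdi (1.40-, 0.88- and 1.40-fold). Neither for this count nor for that of groups without overlap was a share over other gene pairs determined. With 3 pairs an exact two-sided sign-flip permutation test cannot give less than p = 0.25.

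**Figure D3:**
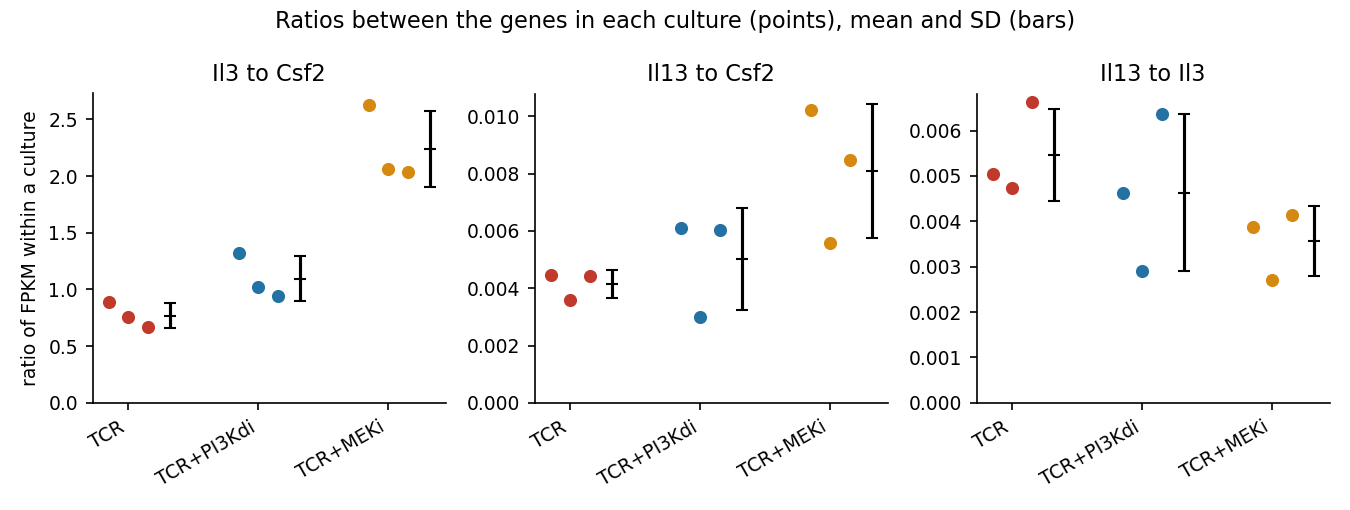
Ratio of FPKM between 2 of the genes within each stimulated culture (points), with the group mean and SD (n = 3), on axes that start at 0. The Il3 to Csf2 ratio is under 1 in each TCR culture and between 2.04 and 2.63 in the TCR+MEKi cultures, whereas both ratios with Il13 overlap between TCR and TCR+PI3Kdi.

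Within 1 Mb on either side of the 3 genes RefSeq lists 39 protein-coding genes, of which 24 were analysed here, the 3 cytokine genes included. Of the 21 neighbours analysed 3 were called higher and 4 lower with TCR retriggering (median log2 fold change 0.17, against -0.01 for all genes). Over all genes 8.87% were called higher and 11.1% lower, and a difference of the neighbours from these shares was not tested. Of the 21, 16 stood in the list of neighbours, with 3 higher and 2 lower, and 5 did not, with 0 higher and 2 lower. P4ha2, a collagen prolyl hydroxylase gene whose midpoint lies at -151.0 kb from the start of Il3, rose from 0.763 ± 0.10 to 5.52 ± 1.20 FPKM. Acsl6, a long-chain acyl-CoA synthetase gene on the other side of Il3, rose from 0.0367 ± 0.0115 to 0.560 ± 0.223 FPKM, and did not pass the 2-fold threshold with a pseudocount of 1. At so low a level without peptide it may have passed the filter on low counts only through stimulated groups, which would partly set its rise. Rapgef6 rose from 10.4 ± 0.758 to 24.5 ± 2.65 FPKM, inside 2-fold on the TPM scale. Irf1, an interferon-regulated transcription factor gene between Il13 and Csf2, fell from 54.5 ± 3.26 to 12.4 ± 0.891 FPKM (log2 fold change -2.12, adjusted p = 2.09e-12 in limma), and Sept8 fell from 0.440 ± 0.0872 to 0.160 ± 0.0954 FPKM, a call that was lost without TCR replicate 1 and with a pseudocount of 1. The unlisted neighbours called lower, named after their values were seen, were Ccdc69, from 10.0 ± 1.49 to 3.01 ± 0.461 FPKM, and Slc36a1, an amino acid transporter gene, from 3.397 ± 0.507 to 1.06 ± 0.165 FPKM.

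With PI3Kdi, P4ha2 (2.10 ± 0.437 FPKM, log2 fold change -1.35, adjusted p = 5.80e-05 in limma) and Acsl6 (0.0933 ± 0.0208 FPKM, -1.72, adjusted p = 0.000521) were the neighbours called lower. This was 2 of 21, against 1.38% of all genes, and none was called higher. The limit of the filter on low counts may hold for the fall of Acsl6 as for its rise. The fall of Acsl6 was also inside 2-fold with a pseudocount of 1 (log2 fold change -0.50), which left 1 call. With MEKi limma called 0 of the 21 in either direction, against 2.51% of all genes called lower and 0.980% called higher. Of the 16 listed ones 0 were called with voom weights on approximate reads, and 9 had an unadjusted p under 0.05, each with a change under 2-fold. How many of all genes had such an unadjusted p was not determined. P4ha2 was at 6.88 ± 0.444 FPKM with MEKi, 1.68 log2 units above its level with PI3Kdi (adjusted p = 3.76e-06). Il4 and Il5, also cytokine genes of the locus, were not among the genes of the expression table, from which the authors had removed low genes.

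**Figure D4:**
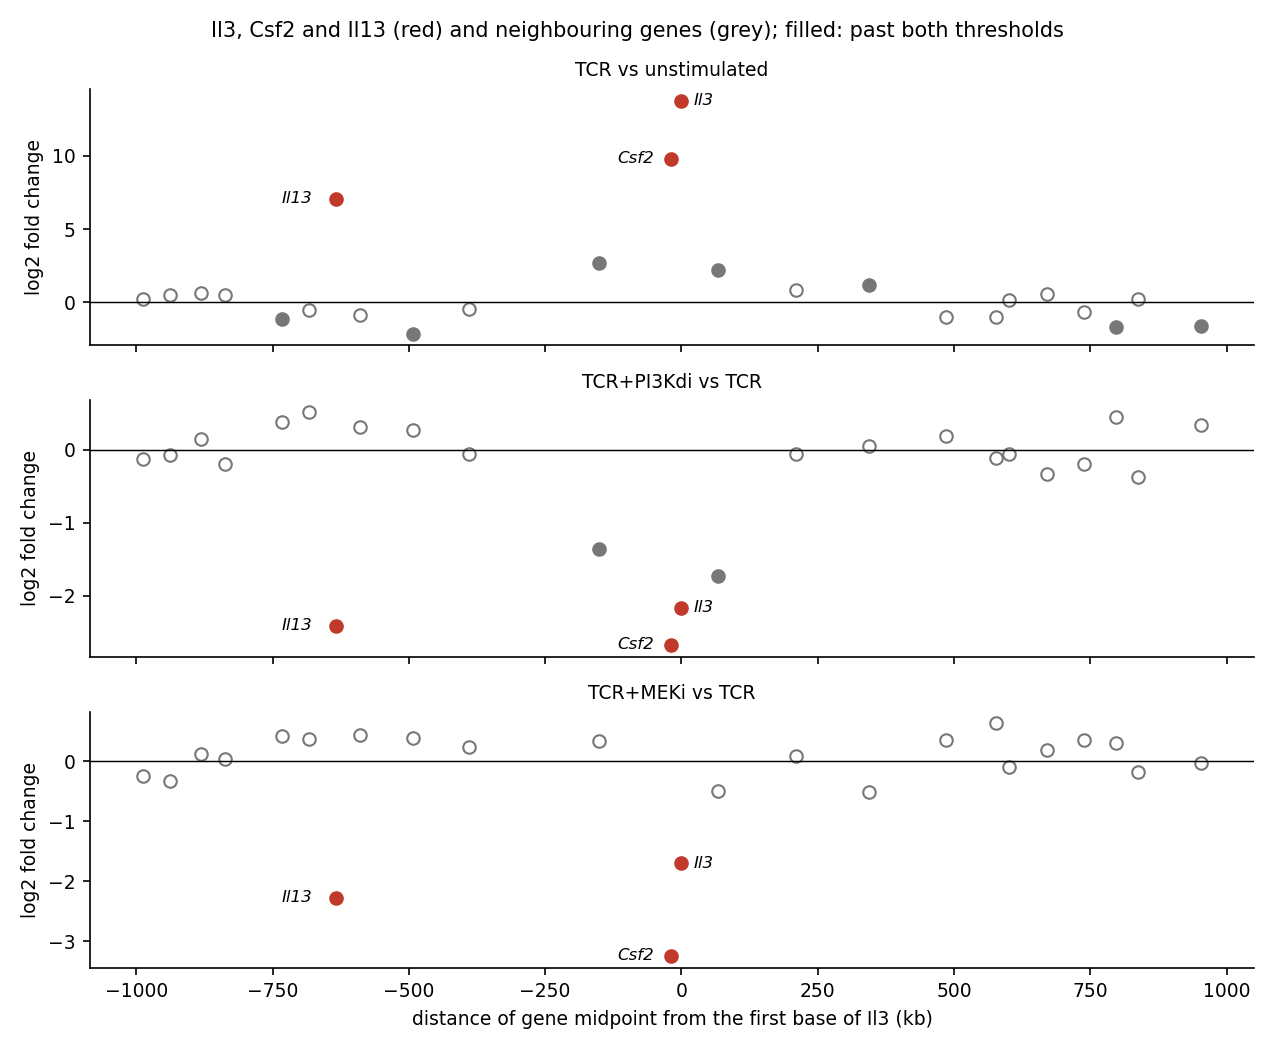
Log2 fold change of the 24 genes analysed within 1 Mb on either side of the 3 cytokine genes, against the distance of the gene midpoint from the first base of Il3 in kb, for 3 comparisons, with filled points past both thresholds. Il3, Csf2 and Il13 (red) have the largest changes in each panel, and P4ha2 and Acsl6 are the filled grey points with PI3Kdi.

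Among the receptor chains, Il3ra, the specific chain of the IL-3 receptor, was at 9.51 ± 0.468 FPKM in unstimulated CTL and 8.06 ± 1.35 FPKM in TCR cultures (adjusted p = 0.15 in limma). Csf2ra, that of the GM-CSF receptor, was at 1.54 ± 0.211 and 1.73 ± 0.659 FPKM (adjusted p = 0.743). Il13ra1, which pairs with Il4ra to bind IL-13, rose from 0.0467 ± 0.0252 to 0.587 ± 0.225 FPKM and was called lower with both inhibitors (0.200 ± 0.0346 and 0.197 ± 0.0513 FPKM). Those calls at very low level were lost with a pseudocount of 1 in each of the 3 comparisons and, for the inhibitors, on the TPM scale and without TCR replicate 3. Of the 8 receptor genes listed 5 were analysed. Of these 5, 1 was called higher with TCR retriggering and 1 lower with each inhibitor, in each case Il13ra1. At so low a level outside TCR cultures it may have passed the filter on low counts only through those cultures, which would partly set these calls. Over all genes 8.87% were called higher with TCR retriggering, 1.38% lower with PI3Kdi and 2.51% lower with MEKi.

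Of 11 genes that signal from these receptors, 3 were called higher and 1 lower with TCR retriggering, 0 in either direction with PI3Kdi (8 at an unadjusted p under 0.05 in limma, and 0 called with voom weights), and 1 higher and 1 lower with MEKi. The shares of all genes called higher and lower were 8.87% and 11.1% with TCR retriggering, 0.499% and 1.38% with PI3Kdi, and 0.980% and 2.51% with MEKi. For the unadjusted p the share of all genes was not determined. Without TCR replicate 2, TCR replicate 3 or TCR+PI3Kdi replicate 3, 1 of the 11 was called lower with PI3Kdi. Stat5a, which transmits IL-3 and GM-CSF signals, rose from 11.7 ± 0.618 to 124 ± 4.00 FPKM and was at 62.2 ± 2.80 FPKM with PI3Kdi (log2 fold change -0.99, adjusted p = 3.40e-08 in limma, just inside 2-fold). Jak2, the kinase bound to the common beta chain, rose from 25.3 ± 2.75 to 121 ± 14.5 FPKM and fell to 55.7 ± 2.00 FPKM with MEKi, a fall inside 2-fold on the TPM scale. Socs1, an inhibitor of JAK kinases, fell from 79.5 ± 4.50 to 24.3 ± 3.13 FPKM.

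Of the 10 other genes listed here as type 2 cytokines 4 were analysed, which had passed the filter on low expression. These 4 were called higher with TCR retriggering and lower with PI3Kdi and MEKi, as were Il3, Csf2 and Il13. The shares of all genes were 8.87%, 1.38% and 2.51%. A gene low without peptide passes that filter through the groups where it is high, so a rise among the analysed genes is partly set by it. Il10, whose product restrains inflammation, rose from 121.8 ± 27.4 to 3545 ± 302 FPKM, and its falls to 1634 ± 130 (PI3Kdi) and 1437 ± 134 FPKM (MEKi) were not called after quantile normalisation, nor was the former on the TPM scale. Il31 went from 0.950 ± 0.579 to 57.1 ± 10.2 FPKM, then to 15.5 ± 2.89 with PI3Kdi and 8.87 ± 2.16 with MEKi. Areg, for the growth factor amphiregulin, was the one of the 4 called lower with MEKi than with PI3Kdi (0.797 ± 0.393 against 4.15 ± 0.201 FPKM). Its call with PI3Kdi was lost on the TPM scale and with either other pseudocount, and that of Il24 with MEKi on the TPM scale. In the wider list of cytokine genes other than the 3, 57 of 91 were analysed, under the same limit of the filter. Of these 57, 38 were called higher and 7 lower with TCR retriggering (8.87% and 11.1% of all genes). With PI3Kdi 24 were lower and 0 higher (1.38% and 0.499% of all), and with MEKi 25 lower and 2 higher (2.51% and 0.980%). The median log2 fold changes were 2.76, -0.84 and -0.79. In log2 units the falls of Csf2, Il13 and Il3 with PI3Kdi ranked 8, 10 and 13 of 60 in that list, and with MEKi 4, 12 and 19.

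Of 30 transcription factor genes 15 were called higher and 2 lower with TCR retriggering, against 8.87% and 11.1% of all genes. With PI3Kdi limma called 0 of the 30, with or without voom weights, against 1.38% of all genes lower and 0.499% higher. At an unadjusted p under 0.05 limma passed 22 of the 30, with a median log2 fold change of -0.34 against 0.02 for all genes. The share of all genes at that unadjusted p was not determined, so whether 22 is unusual cannot be said. With MEKi 7 were called lower and 0 higher, against 2.51% and 0.980% of all genes. The 7 were Egr1, Egr2 and Egr3, the AP-1 genes Fos, Fosb and Fosl1, and Tbx21, which encodes T-bet. Egr1 was at 60.8 ± 5.32 FPKM with PI3Kdi and 4.47 ± 0.922 FPKM with MEKi, against 87.5 ± 10.5 FPKM in TCR cultures. Gata3, the type 2 lineage factor, was at 3.31 ± 0.403, 3.73 ± 0.295, 3.33 ± 0.765 and 4.24 ± 0.816 FPKM in the 4 groups in the order given above, with no call. On the TPM scale the falls of Fosl1 and Tbx21 with MEKi were inside 2-fold.

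The genes whose pattern over the 12 cultures was most like that of each of the 3 were ranked by Pearson's r of log2(FPKM + 0.1) among 10232 genes, as a description over samples that share their groups. For Il3 these were Tnfsf14 (r = 0.9978), Stx6, Ccl9, Nkain1 and Ccl4. For Csf2 they were Slc18a2 (r = 0.9969), Sphk1, Tnfsf11 and Abtb2, and for Il13 Wnt10b (r = 0.998), Ptpn5, Ccdc137, Rela and Lipg. No gene was in more than 1 of these lists. Between the 3 genes r was 0.9749 for Il3 and Csf2, 0.9656 for Il3 and Il13, and 0.9906 for Csf2 and Il13.

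Of the markers of other cell types, some moved with the 3 genes and some did not. Of 8 mast cell and basophil markers 2 were analysed, Mcpt8 and Kit, whose summed level was 5.55 to 7.71 FPKM in unstimulated, 23.1 to 29.9 in TCR, 14.3 to 18.0 in TCR+PI3Kdi and 15.6 to 17.4 in TCR+MEKi cultures. Of 4 markers of type 2 innate lymphoid cells 2 were analysed, Il1rl1 and Rora, with sums of 3.32 to 3.84, 20.1 to 27.7, 11.2 to 16.01 and 15.2 to 18.6 FPKM. Of 4 CD4 T cell markers 3 were analysed, at 8.41 to 10.8, 117.9 to 121.0, 52.8 to 57.1 and 46.5 to 52.5 FPKM, most of it Cd40lg in each stimulated group. Cd4 itself did not follow this sum. With 1 culture left out, its log2 fold change with MEKi was -2.66 to -2.16 against TCR and -2.74 to -2.24 against TCR+PI3Kdi. Of 3 NK cell markers 2 were analysed, Klrb1c and Eomes, whose sum was 74.7 to 83.6 FPKM in unstimulated, 108.3 to 114.3 in TCR, 112.5 to 116.6 in TCR+PI3Kdi and 73.2 to 82.0 in TCR+MEKi cultures, and so was no lower with PI3Kdi. Of 8 myeloid markers 1 was analysed, Itgax, at 0.29 to 0.49, 0.43 to 0.65, 0.38 to 0.75 and 0.38 to 0.43 FPKM, and of 5 B cell markers 0 were analysed. The part of these cells in the levels of Il3, Csf2 and Il13 was not tested.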

How the data were processed

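RNA (300 ng) of the 12 CTL cultures was made into TruSeq Stranded mRNA libraries and sequenced in paired reads of 100 bases. Per the study's methods and the submitters' processing notes, the authors aligned reads with STAR 2.4.2a to mm10, counted them per RefSeq gene with Subread 1.5.0, removed low genes, scaled by TMM and made FPKM with edgeR from summed exon length. The deposited FPKM have 2 decimals, and 0 columns were left unassigned. The spacing of low values gave an estimate of each library's depth. In each library 62.5% to 81.1% of 47 to 88 low values lay within 0.15 of a whole read (30% by chance), so depths are approximate. The settings of this estimate, and the extension of the Il3 exon length to its RefSeq end, were chosen after values had been seen. One read of a gene at these depths is its smallest step, and intervals and floors cover counting error only.

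Tests used limma 3.58.1 in R 4.3.3 on log2(FPKM + 0.1) over all 11022 genes and 12 samples, with an intensity trend and Benjamini-Hochberg adjustment, and were tested on simulated data. Ratios within a culture were compared by exact permutation (SciPy 1.17.1). Named genes were the 3 cytokine genes, listed neighbours within 1 Mb, receptor chains, up to 6 examples of each other list, and the 5 genes most alike each, of which 1 is not reported here. The 3 genes, the lists and the 10 motifs were chosen with earlier results of these data known. Alternatives were other pseudocounts, a filter, other scalings, the replicate block, smaller fits, no trend, voom weights on approximate reads, and leaving out each culture. The voom weights, the paired ratios and all alternatives for inhibitor against unstimulated were added after seeing the data. The study has 3 mice for 3 replicates, and whether equal numbers mark the same mouse is not given in the sources used here. Deviations of same-numbered cultures correlated by 0.239 to 0.451 (TCR+PI3Kdi and TCR), 0.122 to 0.182 (TCR+MEKi and TCR), 0.137 to 0.149 (both inhibitors) and 0.0037 to 0.153 (TCR and unstimulated), which is over 0.1 for every pair in the first 3 comparisons. For cultures of unequal number the ranges were, in the same order, -0.34 to -0.00731, -0.163 to -0.00796, -0.0966 to -0.0461 and -0.14 to 0.0276. The deviations are from group means, so positive values for equal numbers bring negative ones for the others. All main tests are unpaired, and fits with the replicate number as a block, or differences within pairs for the ratios, were alternatives.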

Additional observations from a re-analysis of the deposited data

How the results depend on the processing

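Of 378 values of Il3, Csf2 and Il13 under the alternatives, 376 kept their direction and their call (adjusted p under 0.05 together with a change over 2-fold), and 5 crossed the adjusted p threshold taken alone, 4 of them for Il3 between the inhibitors (0.00249 to 0.658 over its alternatives in limma, never over 2-fold). The filter, the replicate block, smaller fits, no trend and leaving out a culture of another group cannot move a log2 fold change. They can change only the adjusted p, and the 378 include the large differences of inhibitor from unstimulated cultures. The count is thus no count of independent checks. The log2 fold change of Il3 with MEKi was -1.70 with a pseudocount of 0.01, where adjusted p was 0.0733 in limma (3.55e-10 to 0.0733 over its alternatives). The log2 fold change of Il13 between TCR+MEKi and TCR+PI3Kdi ranged from -0.19 to 0.36 when 1 culture was left out, and turned without TCR+PI3Kdi replicate 2. The replicate block changed no call of the 3 genes: the log2 fold changes were the same without it, and adjusted p for Il3 with MEKi was 0.000191.

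A pseudocount of 1 lowered the counts of genes called over all genes. With TCR retriggering 1405 genes were called (718 lower). With PI3Kdi there were 90 (17 higher, 73 lower), with MEKi 201 (29 higher, 172 lower), between the inhibitors 150 (53 higher, 97 lower), and against unstimulated CTL 979 (513 higher, 466 lower) with PI3Kdi and 873 (489 higher, 384 lower) with MEKi. The TPM scale gave 647 higher and 2276 lower with TCR retriggering, 119 higher with PI3Kdi, 323 higher with MEKi and 1272 lower for PI3Kdi against unstimulated. With a mean FPKM of at least 1, 100 genes were lower with PI3Kdi and 99 higher between the inhibitors. The cause was not tested.

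On the TPM scale the part of the rise that remained was 25.2% for Il3 and 17.8% for Csf2 with PI3Kdi, and 37.1% for Il3 and 23.9% for Il13 with MEKi. Leaving out 1 culture gave, with PI3Kdi, 21.04% to 24.1% for Il3, 14.8% to 16.5% for Csf2 and 15.9% to 22.9% for Il13, and with MEKi 27.5% to 33.6%, 9.10% to 12.1% and 18.3% to 20.8%. The log2 difference of the Il13 to Il3 ratio between PI3Kdi and TCR was 0.12 with a pseudocount of 1 and ranged from -0.50 to 0.042 when 1 culture was left out, turning without TCR+PI3Kdi replicate 2. Of the other named genes, 31 of 1526 values lost their call and 0 turned, again with alternatives among them that cannot move a log2 fold change.

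The limits are 3 cultures a group, so that an exact test of a single ratio cannot pass 0.05, and depth. Unstimulated Il3 and Il13 lay at or under 3 reads, so their folds are set by counting, and Il13 with an inhibitor rested on 18 to 48 reads a culture.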
